A study of Mus musculus with 24 samples.

Results

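Neutrophil recruitment and calprotectin are described here through 10 mouse genes. They are the chemokines Cxcl1, Cxcl2 and Cxcl5, their receptor Cxcr2, the granulocyte growth factor Csf3, the cytokine Il1b, the prostaglandin synthase Ptgs2, the siderophore-binding protein Lcn2, and S100a8 and S100a9, the subunits of calprotectin. The members were chosen by symbol, and all 10 were found among the 39179 Ensembl genes listed for each library. All 10 also passed the filter on low counts, which left 20502 genes to be tested. Messenger RNA had been sequenced from dissected cecum, ileum and stomach, in 24 libraries that fall into 8 groups of 3. Cdx2, the homeobox factor that sets intestinal identity, is the gene that the Cdx2 genotypes target.

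Cdx2-/-;Apc+/- cecum, written below as Cdx2-/- Apc+/-, came from mice of genotype Cdx2f/f::AhCreERT::ApcD14/+ given tamoxifen and bnaphthoflavone. Cdx2-/- cecum came from Cdx2f/f::AhCreERT mice given the same agents. It holds 6 libraries, replicates 1 to 3 (set 1) and 4 to 6 (set 2), whose library codes differ. In both genotypes CreERT was driven by the CYP1A1 (Ah) promoter, so recombination was limited to cells where that promoter was active, and Cdx2+/- cecum, WT stomach and WT cecum received no treatment. In the ileum, Cdx2-/- Apc+/- tissue of the treated genotype was set against untreated Apc+/- tissue, which carried the same Apc mutation. For Apc+/- ileum replicates 1 and 3 the labels conflict, since the genotype field lists floxed Cdx2 with AhCreERT and the free text says that Cdx2 is not floxed. Treatment went with the Cdx2-/- genotype in both tissues, so agents and genotype cannot be told apart. The labels used here give no ages and no time after treatment. Nothing states that replicates were separate animals, so the p-values measure the spread between these libraries.

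The libraries held 36567685 to 87975179 reads assigned to genes. Levels are given as CPM, which are read counts scaled to a common library size. Library size here is the total of gene reads multiplied by edgeR's TMM normalization factor. Cdx2 stood at 122 to 151 CPM in Cdx2-/- Apc+/- cecum, 130 to 349 CPM in Cdx2-/- cecum, 115 to 118 CPM in Cdx2+/- cecum and 408 to 663 CPM in WT cecum. Every Cdx2-/- Apc+/- and Cdx2-/- cecum library thus held less Cdx2 than any WT cecum library and more than any Cdx2+/- library, and Cdx2-/- replicate 6, at 349 CPM, came nearest to WT. In the ileum Cdx2 stood at 78.9, 178 and 36.9 CPM in Cdx2-/- Apc+/- tissue, against 90.1, 63.3 and 112 CPM in Apc+/- tissue. The library labelled Cdx2-/- Apc+/- ileum replicate 2 thus lay above the 3 Apc+/- ileum libraries and replicate 1 within their range. Only replicate 3 lay below them, so Cdx2 RNA did not part the ileum groups. Xist stood at 666 to 816 CPM in set 1 and at no more than 2.19 CPM in the other libraries, while the Y-linked Ddx3y was at most 0.250 CPM in set 1 and at least 42.3 CPM in the others. By these genes set 1 differs in sex from every other group, so Cdx2-/- cecum mixes the sexes wherever both sets are used. The part of sex in those comparisons was not tested. Replicates 2 and 3 of set 1 were closer to each other (chi-square per degree of freedom 7.03) than any other pair within a group (53.0 to 507), and were kept as 2 libraries. As a check of the tissue labels, the colonic and cecal markers Car1, Slc26a3, Aqp8 and Muc2 summed to 406 to 2993 CPM in Cdx2-/- cecum, against 19336 to 34490 CPM in WT cecum, and 8 gastric markers to 100511 to 119314 CPM in WT stomach, against at most 696 CPM in WT cecum. Mutant cecum held gastric markers too, with sums of 25015.5 to 27011 CPM in Cdx2+/-, 1755 to 22518.5 CPM in Cdx2-/- and 1377 to 2763 CPM in Cdx2-/- Apc+/- cecum. The marker lists parted ileum from mutant cecum only in part. The colonic and cecal sum was 138 to 2087 CPM in Cdx2-/- Apc+/- ileum and 1562 to 1786 CPM in Apc+/- ileum, within or near the Cdx2-/- cecum range. The sum of 6 small intestinal markers was 129 to 3634 CPM in Cdx2-/- Apc+/- ileum and 699 to 1124 CPM in Apc+/- ileum, and reached 219 to 669 CPM in Cdx2+/- cecum.

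Neutrophils leave the blood along gradients of CXC chemokines that carry the ELR motif, among them CXCL1, CXCL2 and CXCL5 in the mouse, which bind CXCR2 on the neutrophil surface. G-CSF, the product of Csf3, drives neutrophil production and release from bone marrow, and IL-1 beta induces both the chemokines and Csf3 in epithelial and stromal cells. S100A8 and S100A9 pair to form calprotectin, which withholds zinc and manganese from microbes and fills much of the neutrophil cytosol. Squamous keratinocytes and stressed epithelium also make it. In the gut, lipocalin 2 and calprotectin are used as stool markers of inflammation, and Ptgs2 supplies the prostaglandins of injured and tumour-bearing mucosa.

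The 3 chemokines lie in the CXC cluster on chromosome 5 (GRCm38), which spans 147 kilobases. From left to right the cluster holds Cxcl5 (chr5:90759360-90761624, ENSMUSG00000029371), Ppbp, Pf4, Cxcl3, Cxcl15, Cxcl1 (chr5:90891241-90893115, ENSMUSG00000029380) and Cxcl2 (chr5:90903871-90905938, ENSMUSG00000058427), all on the plus strand. Only 10.8 kilobases separate Cxcl1 from Cxcl2. On chromosome 3, S100a8 (chr3:90668978-90670035, plus strand, ENSMUSG00000056054) and S100a9 (chr3:90692632-90695721, minus strand, ENSMUSG00000056071) are 22.6 kilobases apart and are read towards each other. Chromosome 1 holds Cxcr2 (chr1:74153989-74161246, plus strand, ENSMUSG00000026180) and Ptgs2 (chr1:150100031-150108227, plus strand, ENSMUSG00000032487). Csf3 lies at chr11:98701263-98703629 (plus strand, ENSMUSG00000038067) and Lcn2 at chr2:32384633-32388252 (minus strand, ENSMUSG00000026822). Il1b (chr2:129364570-129371139, minus strand, ENSMUSG00000027398) is overlapped by the antisense gene Il1bos. In this library kit, which does not mark strand, reads of Il1b and Il1bos cannot be told apart where they overlap, and 2012 reads went to Il1bos against 33051 to Il1b over the 24 libraries.

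The RefSeq promoters (GRCm38.p6, the 250 bases before the start) of the chemokine pair and the calprotectin pair are shown because the genes of each pair lie close together, and of all tested genes Cxcl1 was nearest in pattern to Cxcl2, and S100a9 to S100a8. Capitals mark a kappaB site in the first 2 sequences, the kind bound by NF-kB, and TTGCNNAA, a C/EBP-type site, in the last. Letters run 5′ to 3′ along each gene.
Cxcl1: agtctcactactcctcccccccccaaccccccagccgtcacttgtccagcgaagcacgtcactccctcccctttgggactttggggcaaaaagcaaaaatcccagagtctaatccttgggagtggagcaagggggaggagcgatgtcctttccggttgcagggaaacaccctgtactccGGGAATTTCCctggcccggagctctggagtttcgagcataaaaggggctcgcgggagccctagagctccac
Cxcl2: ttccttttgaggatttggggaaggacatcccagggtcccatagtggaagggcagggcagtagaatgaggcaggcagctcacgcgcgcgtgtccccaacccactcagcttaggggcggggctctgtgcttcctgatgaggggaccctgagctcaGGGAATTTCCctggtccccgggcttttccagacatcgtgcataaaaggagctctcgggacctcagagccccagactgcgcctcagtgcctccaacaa
S100a8: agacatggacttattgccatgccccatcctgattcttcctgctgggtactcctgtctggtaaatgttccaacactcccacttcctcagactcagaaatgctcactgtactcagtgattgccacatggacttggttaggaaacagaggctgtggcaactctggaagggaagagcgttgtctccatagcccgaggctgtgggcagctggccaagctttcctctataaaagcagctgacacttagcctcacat
S100a9: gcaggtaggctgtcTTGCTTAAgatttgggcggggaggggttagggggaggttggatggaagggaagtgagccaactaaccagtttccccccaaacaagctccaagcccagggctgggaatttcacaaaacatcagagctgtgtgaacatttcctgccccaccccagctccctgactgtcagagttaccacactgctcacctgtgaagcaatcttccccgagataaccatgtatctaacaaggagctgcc
These windows are chr5:90890995-90891244 (plus), chr5:90903649-90903898 (plus), chr3:90668821-90669070 (plus) and chr3:90695722-90695971 (minus) in the same order, and the Ensembl models of Cxcl1, Cxcl2 and S100a8 begin inside their windows. RefSeq promoters were found for 8 of the 10 members, and Cxcl5 and Csf3 are named only. With both strands searched, the exact kappaB site in capitals was found in 28 of 32851 promoters (0.0852%), among them Cxcl1, where it starts at position -71 relative to the start, and Cxcl2, at position -97. A looser kappaB pattern, GGG and CC parted by 5 unspecified bases, overlaps it and matched 45.8% of all promoters and 5 of the 8 members (Cxcl1, Cxcl2, Cxcr2, Lcn2 and Ptgs2). TTGCNNAA matched 9.56% of promoters and 3 of the 8 members (Lcn2, S100a9 and Ptgs2), and TGANTCA, an AP-1-type site, matched 6.75% and no member. A match is a description of the letters, not a site shown to be bound.

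**Figure D1:**
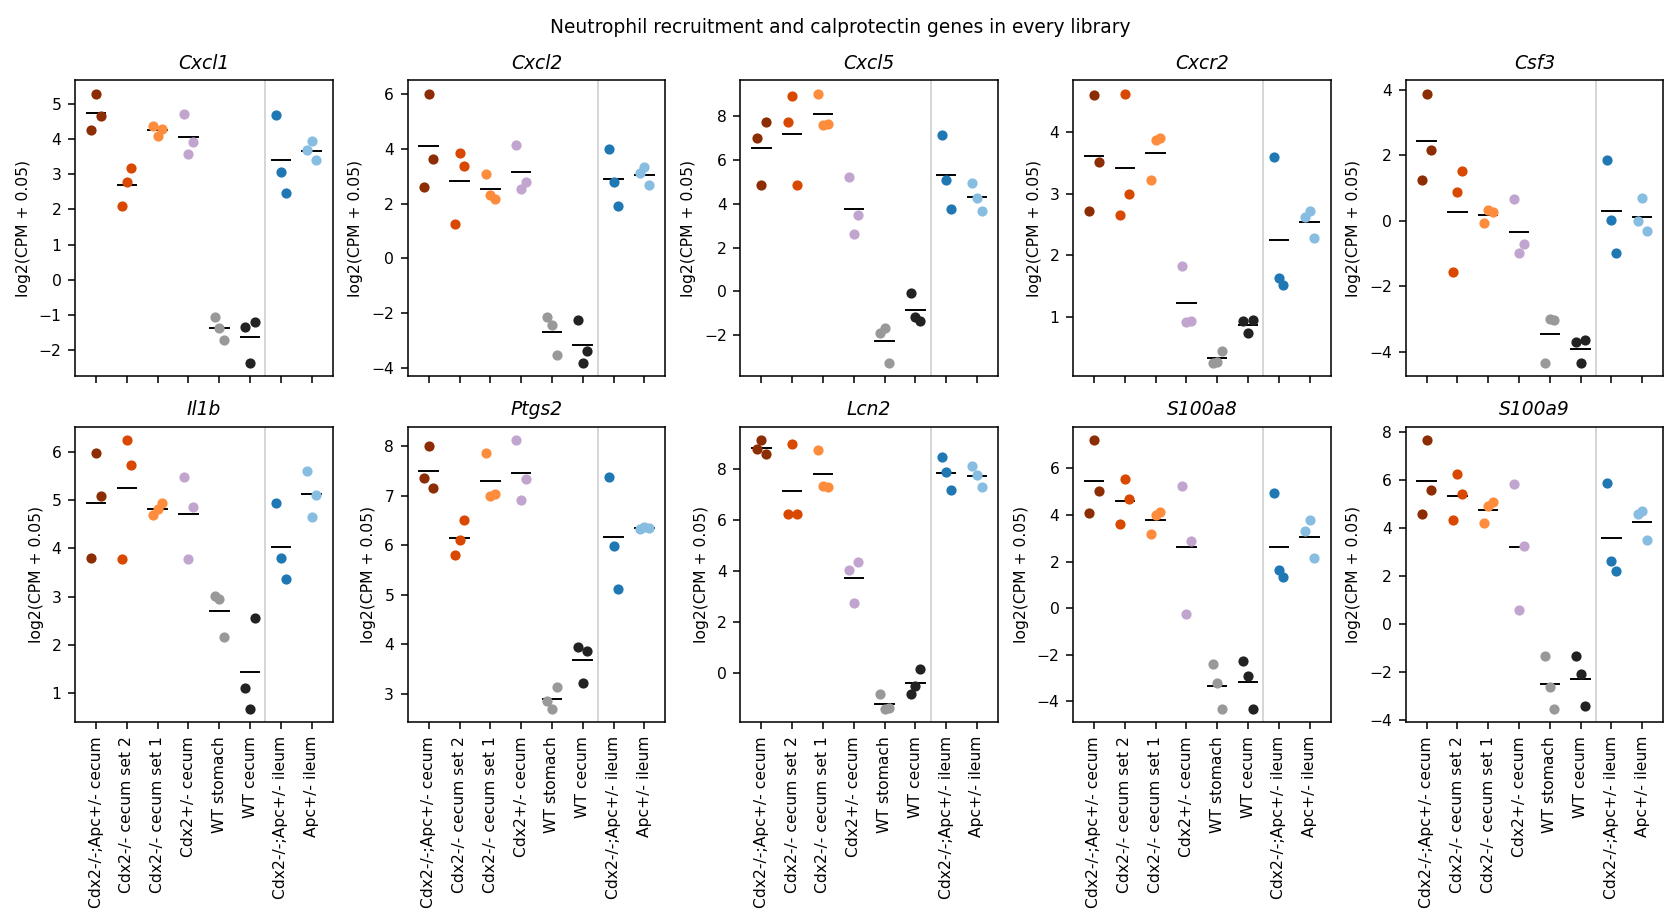
Level of each of the 10 genes in every library, as log2 of CPM plus 0.05, by group. Points are libraries (n = 3 a group), bars are means of the log2 values, and the grey line parts the cecum and stomach groups from the ileum groups. WT stomach and WT cecum sit low for every gene, and the ileum groups sit among the mutant cecum groups.

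Every member was higher in Cdx2-/- cecum than in WT cecum, with log2 fold changes between 2.85 (Cxcr2) and 9.02 (Cxcl5). The CXCR2 ligands are taken first. Cxcl5, made largely by epithelium, had 527, 197 and 202 CPM in set 1 and 214, 491 and 29.5 CPM in set 2 of Cdx2-/- cecum, against 0.901, 0.397 and 0.342 CPM in WT cecum. Its lowest Cdx2-/- library was still far above the highest WT library. Cxcl1 had 20.6, 17.0 and 19.6 CPM in set 1 and 4.22, 6.81 and 9.0 CPM in set 2, against 0.344, 0.146 and 0.386 CPM in WT cecum. Cxcl2 had 8.35, 4.99 and 4.49 CPM in set 1 and 2.36, 14.4 and 10.4 CPM in set 2, against 0.159, 0.0209 and 0.0446 CPM in WT cecum. For all 3 chemokines the 6 Cdx2-/- libraries lay above the 3 WT libraries. The log2 fold changes were 9.02 ± 1.28 for Cxcl5 (SE, adjusted p = 9.39e-06 by edgeR's quasi-likelihood test), 5.25 ± 0.55 for Cxcl1 (adjusted p = 2.48e-07 by edgeR) and 6.71 ± 1.05 for Cxcl2 (adjusted p = 2.70e-05 by edgeR).

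Cxcr2, the receptor of these ligands and in blood a marker of neutrophils, had 9.28, 14.5 and 15 CPM in set 1 and 6.26, 24.6 and 7.89 CPM in set 2, against 1.85, 1.61 and 1.89 CPM in WT cecum. The groups did not overlap, and the log2 fold change of 2.85 ± 0.55 (adjusted p = 0.000252, edgeR) was the smallest of the 10. In bulk tissue, fewer cells of a type and less RNA per cell cannot be told apart, and the same holds for more. Csf3 was nearly silent in WT cecum, with 3 reads over the 3 libraries, against 457 reads over the 6 Cdx2-/- libraries. That is a ratio of 64.6 in CPM with a 95% counting interval of 22.0 to 314, which covers counting error only. Per library Csf3 reached 0.288 to 2.82 CPM in Cdx2-/- cecum, the lowest level of any member there (adjusted p = 0.000268, edgeR).

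Il1b and Ptgs2 were already present in WT cecum. Il1b had 25.8, 28.2 and 30.8 CPM in set 1 and 13.7, 75.6 and 53.1 CPM in set 2, against 2.12, 1.55 and 5.82 CPM in WT cecum (log2 fold change 3.52 ± 0.64, adjusted p = 0.000146, edgeR). Ptgs2 had 234, 127 and 132 CPM in set 1 and 56.0, 69.0 and 90.8 CPM in set 2, against 15.3, 9.31 and 14.5 CPM in WT cecum (3.06 ± 0.43, adjusted p = 8.76e-06, edgeR). Neither gene's groups overlapped, and with Cxcr2 they made the 3 smallest changes.

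The antimicrobial members stood near 0 in WT cecum. Lcn2, which captures bacterial enterobactin, had 426, 161 and 155 CPM in set 1 and 75.3, 503 and 74.5 CPM in set 2, against 0.503, 0.648 and 1.05 CPM in WT cecum (8.27 ± 0.82, adjusted p = 1.38e-07, edgeR). S100a8 had 8.98 to 17.5 CPM in set 1 and 12.2 to 46.3 CPM in set 2, against 0.159, 0.0837 and 0 CPM in WT cecum (8.13 ± 1.58, adjusted p = 0.000258, edgeR). S100a9 had 18.4 to 34.3 CPM in set 1 and 20.3 to 75.6 CPM in set 2, against 0.344, 0.188 and 0.0446 CPM in WT cecum (7.67 ± 1.45, adjusted p = 0.000195, edgeR). The groups overlapped for none of the 3, and the standard errors of the calprotectin genes were the largest of the 10.

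All 10 members thus rose in Cdx2-/- cecum (adjusted p at most 0.000268, edgeR) and none fell, beside 26.9% of all tested genes called higher and 26.2% called lower. Their median log2 fold change was 6.32, against 0.0393 over all tested genes. For all 10 the 6 Cdx2-/- libraries lay above every WT library, which held for 20.3% of tested genes. Each of the 10 calls also held with either set alone, without any single library and with DESeq2. Leaving out a library moved Cxcl2 to 7.65 and S100a9 to 8.35 (without WT replicate 1), Il1b to 4.32 and Csf3, at 5.94 in the full fit, to 6.56 (without WT replicate 3), S100a8 to 9.03 or 7.37 (without WT replicate 1 or 3) and Lcn2 to 7.50 (without Cdx2-/- replicate 5).

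**Figure D2:**
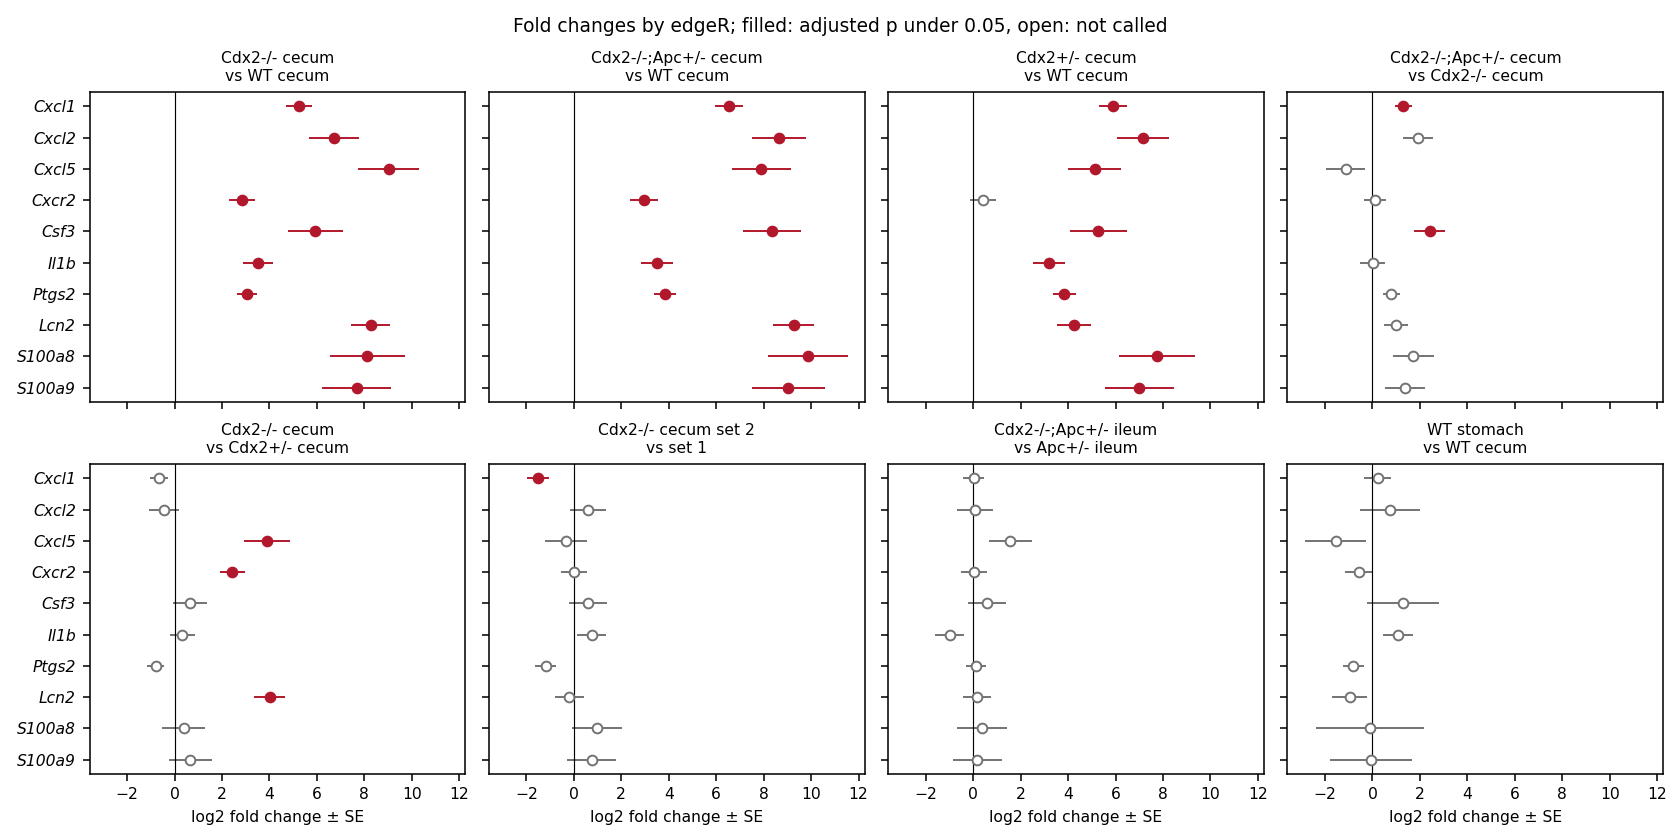
Log2 fold change with its standard error for each of the 10 genes in 8 comparisons, on a common axis. Filled points were called at an adjusted p under 0.05 by edgeR and open points were not. All 10 genes are called in the first 2 panels and 9 in the third, while the ileum and stomach panels hold no called gene.

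On a scale of CPM per kilobase of exon, which allows genes to be compared, Cdx2-/- cecum held most Cxcl5 (149), then Lcn2 (88.7), S100a9 (70.9), S100a8 (30.3) and Ptgs2 (25.8). Il1b followed at 19.9, Cxcl1 at 6.87, Cxcr2 at 4.24, Cxcl2 at 3.62 and Csf3 at 0.962. The order differed between the sets, since Ptgs2 (35.9) stood above S100a8 (20.3) in set 1, while in set 2 S100a9 (88.8) stood above Lcn2 (82.9), Il1b (24.9) above Ptgs2 (15.7) and Cxcl2 (4.37) above Cxcl1 (3.56). In WT cecum the order was another, with Ptgs2 highest at 2.85 and then Il1b at 1.66 and Cxcr2 at 0.585. The other 7 members stood between 0.0133 (Csf3) and 0.369 (S100a9) there.

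The lists below stand beside 26.9% of tested genes called higher in Cdx2-/- against WT cecum and 26.2% called lower. The neighbours of the chemokines in the CXC cluster moved too. All 4 of them rose in Cdx2-/- against WT cecum, namely Cxcl3, another CXCR2 ligand (7.22 ± 1.00), the platelet chemokines Pf4 (3.90 ± 0.56) and Ppbp (4.14 ± 1.13), and the lung chemokine Cxcl15 (2.31 ± 0.63). Of 21 other chemokines 8 rose and none fell, with a median log2 fold change of 0.54. They include Cxcl17 (6.62 ± 0.82), the monocyte attractant Ccl2 (3.61 ± 0.50), Ccl3 (3.65 ± 0.75) and Cxcl16 (1.00 ± 0.19). Of 7 other colony stimulating factors and receptors 6 rose, among them the G-CSF receptor Csf3r (4.06 ± 0.66), Il34, a ligand of the macrophage receptor CSF1R (2.14 ± 0.22), Csf2rb (1.61 ± 0.29) and Csf2 (2.64 ± 0.75).

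Of 14 IL-1 family genes and receptors besides Il1b, 9 rose and 3 fell in Cdx2-/- against WT cecum. The IL-33 receptor Il1rl1 (4.78 ± 0.33), Il1a (4.19 ± 0.32) and the receptor antagonist Il1rn (6.14 ± 0.52) rose, while the epithelial cytokine Il18 fell by 2.35 ± 0.16 on the log2 scale. In the IL-17, IL-22 and IL-6 axis 12 of 19 rose and 4 fell. Il11 (5.83 ± 0.65), the oncostatin M receptor Osmr (2.75 ± 0.34) and Tnf (2.62 ± 0.36) rose, and the IL-17 receptor chain Il17rc fell by 2.81 ± 0.31. Of 13 NF-kB subunits and feedback genes 1 rose and 4 fell (median -0.02), beside the 26.2% of all tested genes called lower, and 8 were not called. Those that fell were Nfkbib at -1.89 ± 0.28, Nfkbiz at -0.67 ± 0.16, Zfp36 at -1.59 ± 0.48 and Relb at -0.94 ± 0.33.

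Of 21 prostaglandin and leukotriene genes besides Ptgs2, 10 rose and 3 fell in Cdx2-/- against WT cecum (median 0.57). The prostaglandin E synthase Ptges rose (1.49 ± 0.21), and the prostaglandin transporter Slco2a1 (-3.44 ± 0.35), Ptges2 (-0.93 ± 0.10) and the leukotriene A4 hydrolase Lta4h (-1.10 ± 0.14) fell. Of 15 other S100 genes 8 rose, among them S100a11 (2.74 ± 0.34), S100a3 (5.01 ± 0.77) and S100a6 (2.32 ± 0.37), and 2 fell, among them S100z (-6.21 ± 0.75). Among 6 receptors of calprotectin and lipocalin 3 rose, which were Cd14 (3.37 ± 0.33), Tlr4 (2.82 ± 0.35) and its partner Ly96 (0.73 ± 0.20). Of 15 other metal-withholding and antimicrobial genes 12 rose and none fell, including haptoglobin Hp (6.6 ± 0.75), Reg3g (6.78 ± 0.95), Chil1 (6.06 ± 1.06) and Slpi (3.28 ± 0.61).

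Neutrophil markers moved with the members. Of 18 tested markers 15 rose and 1 fell in Cdx2-/- against WT cecum (median 4.30), among them Cd177 (5.67 ± 0.70), Trem1 (5.44 ± 0.75), Csf3r and Mcemp1 (3.79 ± 0.68). The summed level of the 20 markers was 320 to 1050 CPM in Cdx2-/- cecum, against 14.2 to 37.6 CPM in WT cecum. Most of that sum was Cd177 and lactoferrin, Ltf, which gave 40.6% and 43.9% in set 1 and 64.3% and 17.4% in set 2. Lactoferrin is also secreted by glandular epithelia. Ly6g had 27.8, 2.39 and 2.47 CPM in set 1 and 1.98, 3.99 and 5.38 CPM in set 2, against 0.0149 to 0.126 CPM in WT cecum. The granule genes of immature neutrophils were at or near 0 in Cdx2-/- cecum, with Mpo at no more than 0.204 CPM, Elane 0.0222 CPM, Ngp 0.200 CPM and Camp 0.185 CPM. Macrophage markers summed to 400 to 631 CPM in Cdx2-/- cecum, against 121 to 250 CPM in WT cecum, and squamous markers to 25.8 to 90.7 CPM, against 4.17 to 9.01 CPM. The part of these cell types in the members' change was not tested.

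**Figure D3:**
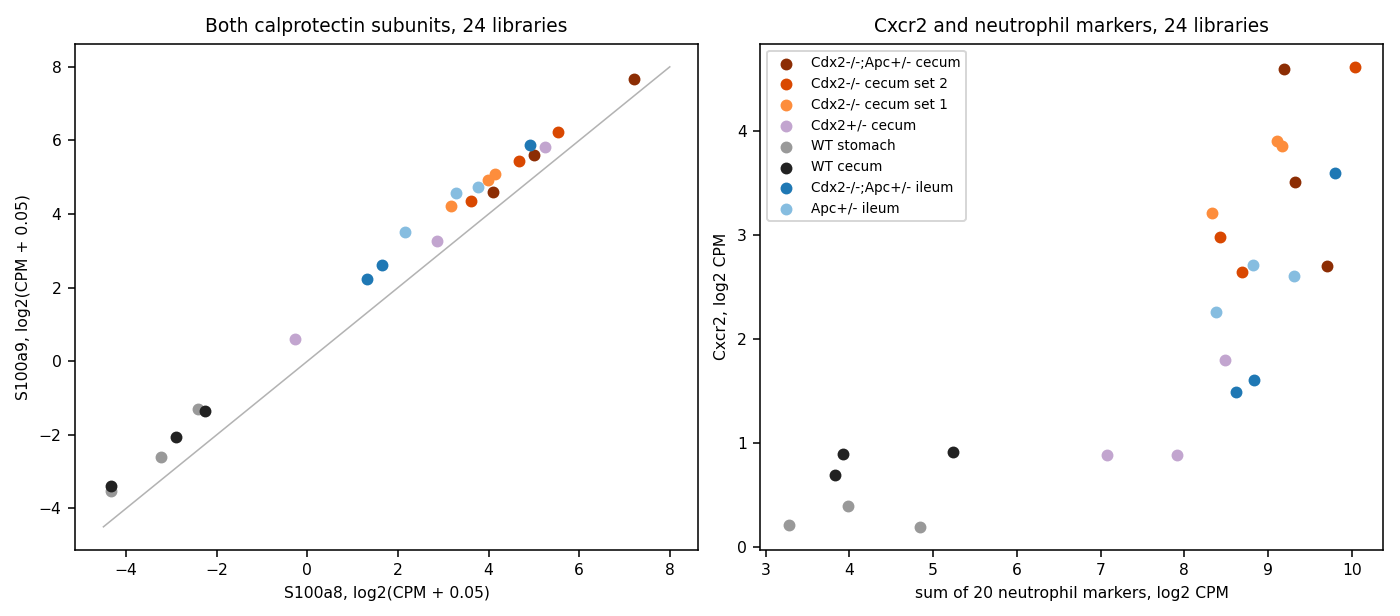
Left, S100a9 against S100a8 in each of the 24 libraries, both as log2 of CPM plus 0.05, with the line of equal level. Right, Cxcr2 against the summed level of 20 neutrophil markers, both as log2 CPM. The calprotectin points follow a line just above equality, and in the right panel Cdx2+/- libraries have Cxcr2 levels near WT at marker sums of 135 to 357 CPM, of which Ltf gives 63.9% and Cd177 21.3%.

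Cdx2+/- cecum, untreated, also had higher levels of nearly all members than WT cecum. It shares its WT libraries with the comparison above. Cxcl1 had 26.3, 11.9 and 14.9 CPM in Cdx2+/- cecum, against 0.344, 0.146 and 0.386 CPM in WT cecum (5.90 ± 0.58, adjusted p = 5.76e-07, edgeR). Ptgs2 had 280, 122 and 161 CPM in Cdx2+/- cecum, against 15.3, 9.31 and 14.5 CPM in WT cecum (3.84 ± 0.47, adjusted p = 6.85e-06, edgeR). Neither gene's groups overlapped. Cxcl2 had 17.5, 5.70 and 6.92 CPM in Cdx2+/- cecum (7.16 ± 1.09), Il1b 44.8, 13.7 and 29.0 CPM (3.19 ± 0.67) and Csf3 1.52, 0.452 and 0.568 CPM. Csf3 had 127 reads in Cdx2+/- cecum, against 3 in WT cecum, a ratio of 40.9 with a counting interval of 13.7 to 201.

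Lcn2 and Cxcl5 rose as well, while Cxcr2 was not called. Lcn2 had 16.1, 6.6 and 20.4 CPM in Cdx2+/- cecum, against 0.503, 0.648 and 1.05 CPM in WT cecum (4.25 ± 0.71, adjusted p = 0.000156, edgeR). Cxcl5 had 37.7, 6.17 and 11.2 CPM in Cdx2+/- cecum, against 0.901, 0.397 and 0.342 CPM in WT cecum (5.11 ± 1.13, adjusted p = 0.00177, edgeR). Cxcr2 had 3.47, 1.84 and 1.85 CPM in Cdx2+/- cecum, against 1.85, 1.61 and 1.89 CPM in WT cecum. Here 2 of the 3 Cdx2+/- libraries lay within the WT range, and the log2 fold change of 0.42 was not called (95% interval -0.68 to 1.52, adjusted p = 0.601, edgeR).

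The calprotectin genes varied most in Cdx2+/- cecum. S100a8 had 37.8, 0.782 and 7.22 CPM there, against 0.159, 0.0837 and 0 CPM in WT cecum (7.74 ± 1.61, adjusted p = 0.00105, edgeR). S100a9 had 56.5, 1.46 and 9.58 CPM, against 0.344, 0.188 and 0.0446 CPM in WT cecum (7.0 ± 1.46, adjusted p = 0.00108, edgeR). Replicate 1 was highest and replicate 2 lowest for both. Without replicate 1 the log2 fold changes were 5.82 for S100a8 and 4.97 for S100a9 (adjusted p = 0.00671 and 0.00781, edgeR), and 6.50 for Cxcl2, 4.04 for Cxcl5 and 4.56 for Csf3. Squamous keratinocyte markers summed to 1148, 66.6 and 498 CPM in the same 3 libraries, against 9.01, 4.60 and 4.17 CPM in WT cecum, and replicate 1 was again highest and replicate 2 lowest. The order was not particular to the calprotectin genes, since replicate 1 was highest for 9 of the 10 members (all but Lcn2) and replicate 2 lowest for all 10. All 11 squamous markers rose (median 7.52), for example Ivl (9.08 ± 1.09) and Pax9 (6.37 ± 0.85). Their part in the calprotectin signal was not tested.

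In all, 9 members rose in Cdx2+/- against WT cecum and none fell, beside 17.1% of tested genes called higher and 17.3% called lower. Without WT replicate 1 the values were 8.10 for Cxcl2, 8.65 for S100a8 and 7.68 for S100a9, and without WT replicate 3 they were 5.90 for Csf3, 4.00 for Il1b and 6.98 for S100a8. The 9 members other than Cxcr2 had all 3 Cdx2+/- libraries above all WT libraries, which held for 24.1% of tested genes. Of the 18 tested neutrophil markers 6 rose and 1 fell, led by Ltf (7.17 ± 1.39) and Cd177 (3.27 ± 0.64), and their sum was 135 to 357 CPM, against 14.2 to 37.6 CPM in WT cecum. Ltf made up 63.9% of the Cdx2+/- sum and Cd177 21.3%. Ly6g had 4.36, 0.955 and 8.90 CPM in Cdx2+/- cecum, against 0.0149 to 0.126 CPM in WT cecum. Csf3r had 11.2, 6.86 and 7.69 CPM, against 1.43 to 2.78 CPM in WT cecum. Neither gene's groups overlapped, while Mpo, Elane, Ngp and Camp were each at most 0.104 CPM in Cdx2+/- cecum. In the CXC cluster Cxcl3 (6.83 ± 1.02) and Ppbp (5.96 ± 1.26) rose, 2 of 4 neighbours. Of 14 IL-1 family genes 7 rose and 3 fell, with Il1a at 5.22 ± 0.35 and Il1rl1 at 5.06 ± 0.35. Smooth muscle markers fell in all 6 cases, for example Tagln (-2.72 ± 0.44).

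Set directly against Cdx2+/- cecum, Cdx2-/- cecum had more Cxcl5, Cxcr2 and Lcn2. Lcn2 ranged from 74.5 to 503 CPM in Cdx2-/- cecum (median 158), against 6.6 to 20.4 CPM in Cdx2+/- cecum (4.01 ± 0.64, adjusted p = 0.000174, edgeR). Cxcr2 ranged from 6.26 to 24.6 CPM (median 11.9), against 1.84 to 3.47 CPM in Cdx2+/- cecum (2.44 ± 0.54, adjusted p = 0.00193, edgeR). These 2 genes had no overlap between the groups, beside 19.3% of tested genes higher in all Cdx2-/- libraries and 18.4% lower. Cxcl5 ranged from 29.5 to 527 CPM in Cdx2-/- cecum (median 208), against 6.17 to 37.7 CPM in Cdx2+/- cecum (3.91 ± 0.96, adjusted p = 0.00404, edgeR). Its lowest Cdx2-/- library, replicate 6, fell below the highest Cdx2+/- library. Without Cdx2+/- replicate 1 the Cxcl5 value was 4.99, and without Cdx2-/- replicate 5 the Lcn2 value was 3.25.

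So 3 of 10 members rose and none fell, beside 19.7% of tested genes called higher and 20.6% called lower. The other 7 were not called, with log2 differences between -0.79 (Ptgs2, 95% interval -1.48 to -0.09, adjusted p = 0.0849, edgeR) and 0.67 (S100a9, -1.11 to 2.45). Cxcl1 had -0.65 (-1.39 to 0.09) and S100a8 0.38 (-1.43 to 2.19), so that differences of several fold in the calprotectin genes are within these intervals. With set 2 alone as Cdx2-/- cecum, Cxcl1 (-1.41, adjusted p = 0.0195, edgeR) and Ptgs2 (-1.38, adjusted p = 0.0155, edgeR) were lower than in Cdx2+/- cecum. Ptgs2 was also called lower (-0.96, adjusted p = 0.0450, edgeR) without replicate 1 of set 1. Of the neutrophil markers 5 of 18 rose in Cdx2-/- against Cdx2+/- cecum, led by Cd177 (2.40 ± 0.57), and 9 of 11 squamous markers fell, led by Krt13 (-5.96 ± 0.77).

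The next group carried a mutant Apc allele besides the Cdx2-/- genotype. In Cdx2-/- Apc+/- cecum all 10 rose against WT cecum and none fell, beside 26.6% of tested genes called higher and 26.1% called lower, with a median log2 fold change of 8.13. The values ran from 2.97 ± 0.59 for Cxcr2 to 9.85 ± 1.68 for S100a8, the WT libraries being those used above. All Cdx2-/- Apc+/- libraries lay above all WT libraries for the 10 members (as for 28.5% of tested genes, with 27% lower in all). Without replicate 2, the values were 7.05 for Cxcl2, 2.33 for Cxcr2, 7.28 for Csf3, 2.90 for Il1b, 8.43 for S100a8 and 7.69 for S100a9, and all 10 were still called. Without replicate 3, Cxcl5 had 7.24. Without WT replicate 1 the values were 9.57 for Cxcl2, 10.75 for S100a8 and 9.71 for S100a9, and without WT replicate 3 they were 8.97 for Csf3, 4.33 for Il1b and 9.09 for S100a8. Neutrophil markers rose in 16 of 18 cases, and their sum was 581 to 831 CPM in Cdx2-/- Apc+/- cecum, against 14.2 to 37.6 CPM in WT cecum.

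Against Cdx2-/- cecum, Cdx2-/- Apc+/- cecum had more Csf3 and Cxcl1. Csf3 had 2.30, 14.6 and 4.41 CPM in Cdx2-/- Apc+/- cecum, against 0.288 to 2.82 CPM in Cdx2-/- cecum (2.41 ± 0.66, adjusted p = 0.0302, edgeR). Cxcl1 had 19.2, 39.0 and 25.4 CPM, against 4.22 to 20.6 CPM in Cdx2-/- cecum (1.30 ± 0.37, adjusted p = 0.0378, edgeR). The groups overlapped for both genes, as for every member (all libraries higher for 4.23% of tested genes and lower for 4.4%). Without Cdx2-/- Apc+/- replicate 2, Csf3 had 1.33 (adjusted p = 0.315, edgeR) and Cxcl1 0.98 (adjusted p = 0.222, edgeR). With replicate 1, 2 or 3 of set 1, or replicate 4 of set 2, left out, neither was called (adjusted p from 0.0535 to 0.0792 for Cxcl1 and 0.0547 to 0.0599 for Csf3, edgeR). Cxcl1 was not called without Cdx2-/- Apc+/- replicate 3 (adjusted p = 0.0752, edgeR) or Cdx2-/- replicate 5 (adjusted p = 0.0506, edgeR) either. With set 1 alone Cxcl1 had 0.55 (adjusted p = 0.403, edgeR), and with set 2 alone Cxcl1 had 2.06 (adjusted p = 0.164, edgeR) and Csf3 2.12 (adjusted p = 0.385, edgeR).

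These are 2 members called higher and none lower, beside 3.93% of tested genes called higher and 4.5% called lower. Cxcl2 had 6.10, 65.0 and 12.5 CPM in Cdx2-/- Apc+/- cecum, against 2.36 to 14.4 CPM in Cdx2-/- cecum, a difference of 1.92 (0.71 to 3.14) that was not called (adjusted p = 0.0588, edgeR). It was called with DESeq2 (adjusted p = 0.0304), with set 1 alone (2.23, adjusted p = 0.0466, edgeR), and without Cdx2-/- Apc+/- replicate 1 or Cdx2-/- replicate 5 (2.40 and 2.18). Lcn2 had 435, 560 and 388 CPM in Cdx2-/- Apc+/- cecum, against 74.5 to 503 CPM in Cdx2-/- cecum (0.99, 0.01 to 1.97, unadjusted p = 0.0623 by edgeR, not called). That interval excludes 0 although p exceeds 0.05, since the intervals are normal approximations and narrower than the F test implies. Without Cdx2-/- replicate 5, its highest library, Lcn2 was called at 1.76 (adjusted p = 0.0106, edgeR). Cxcl5 was the only member with a negative estimate, -1.12 (-2.72 to 0.48), with 131, 29.5 and 218 CPM in Cdx2-/- Apc+/- cecum. Il1b differed by 0.00 (-1.03 to 1.03) and Cxcr2 by 0.12 (-0.80 to 1.04).

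A few related genes changed in that comparison, beside 3.93% of tested genes called higher and 4.5% called lower. In the IL-17, IL-22 and IL-6 axis Il6 (2.21 ± 0.61) and Lif (1.41 ± 0.39) rose, 2 of 19, and in the IL-1 family the decoy receptor Il1r2 (2.26 ± 0.54) and Il1r1 (0.66 ± 0.19) rose, 2 of 14. Of the neutrophil markers 1 of 18 rose, the granule protein gene Ngp (6.70 ± 1.23). Its level was 0.468, 16.2 and 0.858 CPM in Cdx2-/- Apc+/- cecum, against 0.0109 to 0.200 CPM in Cdx2-/- cecum. The high library is again replicate 2, which was the highest of its group for 9 of the 10 members and the lowest for Cxcl5. None of the 4 CXC cluster neighbours was called (median -0.22).

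The 2 sets of Cdx2-/- cecum differed in sex and library code. Cxcl1 was lower in set 2, with 4.22, 6.81 and 9.0 CPM, against 20.6, 17.0 and 19.6 CPM in set 1 (-1.51 ± 0.46, adjusted p = 0.0409, edgeR). Ptgs2 had 56.0, 69.0 and 90.8 CPM in set 2, against 234, 127 and 132 CPM in set 1, a difference of -1.19 (-2.03 to -0.36) that was not called (adjusted p = 0.0799, edgeR). These were the 2 members whose sets did not overlap, both lower in set 2, as were 18.4% of tested genes. In the whole comparison 1 member was called lower and none higher, beside 6.45% of tested genes called lower and 4.03% called higher. The Cxcl1 call was lost without replicate 1, 2, 3, 4 or 5 (adjusted p from 0.0800 to 0.145, edgeR), with values of -1.59 to -1.27. The other 8 members had estimates between -0.34 (Cxcl5) and 0.99 (S100a8, -1.08 to 3.06). Sex, library code and any difference in the mice cannot be told apart here.

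In the ileum both genotypes had the members at levels above those of WT cecum, and no member differed between them by the test. Lcn2 had 351, 234 and 145 CPM in Cdx2-/- Apc+/- ileum, against 281, 215 and 158 CPM in Apc+/- ileum. For Cxcl1 the Cdx2-/- Apc+/- libraries held 25.4, 8.31 and 5.48 CPM, beside 12.8, 15.3 and 10.4 CPM for Apc+/-. For Ptgs2 the Cdx2-/- Apc+/- libraries held 168, 63.6 and 34.6 CPM, beside 80.7, 83.1 and 81.6 CPM for Apc+/-. In each case the Cdx2-/- Apc+/- libraries lay on both sides of the Apc+/- libraries.

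Replicate 1 of Cdx2-/- Apc+/- ileum was highest of its group for all 10 members and replicate 3 lowest for all 10. S100a8 held 30.2, 3.09 and 2.45 CPM in Cdx2-/- Apc+/- ileum, beside 9.75, 13.5 and 4.39 CPM in Apc+/- ileum (0.37, 95% interval -1.70 to 2.43). Cxcl5 held 141, 33.8 and 13.7 CPM, beside 31.3, 19.5 and 12.7 CPM in Apc+/- ileum (1.57, -0.23 to 3.37), and Il1b had 30.6, 13.9 and 10.3 CPM, against 48.6, 25.2 and 34.5 CPM (-0.98, -2.19 to 0.22). Cxcl5 and Il1b gave the highest and the lowest estimate, and the groups overlapped for every member (no overlap for 6.25% of tested genes higher and 4.93% lower). No member was called in either direction by edgeR or DESeq2, and 0 of the 10 had an unadjusted p under 0.05 (adjusted p at least 0.649, edgeR), beside 0.395% of tested genes called higher and 0.0488% called lower. Cdx2 RNA itself overlapped between the ileum groups, with only replicate 3 of Cdx2-/- Apc+/- ileum below every Apc+/- library. Without the library labelled replicate 2, whose Cdx2 was high, the estimates ran from -0.82 to 1.87 and none was called. The neutrophil marker sum was 392 to 891 CPM in Cdx2-/- Apc+/- ileum, against 333 to 634 CPM in Apc+/- ileum, and 0 of 18 markers were called.

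Every Apc+/- ileum library lay above every WT cecum library for all 10 members, as for 30.5% of tested genes. Tissue and Apc genotype cannot be told apart in that contrast, since there is no WT ileum group here, and no test was made. The effect of Cdx2-/- over its untreated group in the cecum exceeded that of Cdx2-/- Apc+/- over Apc+/- in the ileum for all 10 members, by 2.82 (Cxcr2) to 8.11 (Lcn2) on the log2 scale. This test of the difference was added after the values had been seen. All 10 differences were called (adjusted p from 5.53e-06 to 0.00706, edgeR), beside 17.2% of tested genes called higher and 17.8% called lower. The controls differ in Apc as well as in tissue, so tissue, Apc and the high levels of Apc+/- ileum cannot be told apart. Cdx2 RNA also parted Cdx2-/- from WT libraries in the cecum, while the ileum groups overlapped in it. Without replicate 1 of Cdx2-/- Apc+/- ileum the difference was 9.86 for S100a8 and 3.84 for Cxcr2, and 6.15 for Cxcl1, 7.37 for Cxcl2, 8.86 for Cxcl5, 6.55 for Csf3, 5.09 for Il1b, 9.61 for S100a9 and 3.80 for Ptgs2. Without WT cecum replicate 1 it was 7.56 for Cxcl2, 8.66 for S100a8 and 8.17 for S100a9, without WT cecum replicate 3 it was 5.97 for Csf3, 5.31 for Il1b and 7.0 for S100a8, and without Cdx2-/- replicate 5 it was 7.34 for Lcn2. All 10 were called in each of these cases.

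WT stomach was compared with WT cecum, and no member was called. Lcn2 had 0.513, 0.322 and 0.328 CPM in WT stomach, against 0.503, 0.648 and 1.05 CPM in WT cecum. Il1b had 8.0, 7.74 and 4.42 CPM, against 2.12, 1.55 and 5.82 CPM in WT cecum (1.07, 95% interval -0.17 to 2.31), and Ptgs2 had 7.22, 6.43 and 8.79 CPM, against 15.3, 9.31 and 14.5 CPM (-0.80, -1.65 to 0.04). No member was called by edgeR or DESeq2 and 0 had an unadjusted p under 0.05, beside 22.1% of tested genes called higher and 21.6% called lower. Cxcl5, Cxcr2 and Ptgs2 were lower in all 3 stomach libraries than in any WT cecum library, as were 25.2% of tested genes. Without WT cecum replicate 3 Il1b was called higher in stomach (1.88, adjusted p = 0.0378, edgeR), and with only these 2 groups in the fit Ptgs2 was called lower (-0.82, adjusted p = 0.0380, edgeR). For S100a8 the interval ran from -4.59 to 4.37, with at most 0.159 CPM in any of the 6 libraries.

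Ordered by mean level, WT stomach and WT cecum were the last 2 groups for all 10. Neighbours in these orders overlapped in most cases. For Cxcl1 the groups ran from Cdx2-/- Apc+/- cecum (27.8 ± 10.1 CPM, SD, n = 3) through set 1 (19.1 ± 1.89), Cdx2+/- cecum (17.7 ± 7.62), Cdx2-/- Apc+/- ileum (13.1 ± 10.8) and Apc+/- ileum (12.9 ± 2.45) to set 2 (6.68 ± 2.39). Breaks between neighbours lay only on either side of set 2. Set 2 (4.22 to 9.0 CPM) still overlapped Cdx2-/- Apc+/- ileum (5.48 to 25.4 CPM), which ranks above it. For Lcn2 they ran from Cdx2-/- Apc+/- cecum (461 ± 89.0) through set 1 (248 ± 155), both ileum groups (243 ± 103 and 218 ± 61.6) and set 2 (218 ± 247) to Cdx2+/- cecum (14.4 ± 7.07), which stood apart from set 2 above it and WT cecum below it. For Cxcr2, Cdx2+/- cecum (2.39 ± 0.94) overlapped WT cecum (1.78 ± 0.15) and lay below Apc+/- ileum (5.81 ± 0.93).

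In the 18 libraries with at least 45 S100a8 reads, S100a9 was 1.33 to 2.58 times S100a8 in CPM, although S100a8 itself ranged from 0.782 to 147 CPM. No other tested gene was as close in pattern to S100a8 as S100a9, with a root mean square difference of 0.24 in mean-centred log2 CPM over the 24 libraries, and the next, Cxcl3, was at 1.19. In the same 18 libraries the ratio of Cxcl5 to Cxcl1 ran from 0.52 in Cdx2+/- replicate 2 to 72.1 in Cdx2-/- replicate 5. In Cdx2-/- Apc+/- replicate 2, where Cxcl1 was 39.0 CPM and the highest of its group, that ratio was 0.757.

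The genes nearest in pattern to further members were found with the same measure, as a description over the same 24 libraries. Cxcl2 was nearest to Cxcl1 (0.81) and then Cxcl3 (0.95), and Cxcl1 to Il1rl1 (0.77), Dio2 (0.78) and Il1a (0.79). Cxcr2 was nearest to Trim30b (0.55), Trem3 (0.57) and Mcemp1 (0.59), Il1b to Nlrp3 (0.58), and Ptgs2 to Ccl2 (0.60), Tead4 (0.62) and Slc1a1 (0.68). Lcn2 and Cxcl5 had no close companion, their nearest genes being Cd177 (1.44) and Lrg1 (1.32).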

How the data were processed

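Messenger RNA of dissected tissue was sequenced from unstranded TruSeq libraries, per the labels' protocols. The deposited values are raw read counts per Ensembl gene, made by the authors with TopHat2 2.0.11 and HTSeq 0.5.3p3 on GRCm38, with CASAVA also named, per the submitters' processing notes. Which annotation release and which strand setting were used is not given in the sources used here. The 5 closing rows that name no gene were left out of library sizes (no feature 6.62 to 10.4% of reads, ambiguous 2.00 to 3.44%, not unique 17.3 to 30.0%), and 37607 of 39179 IDs matched a mouse symbol.

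edgeR 4.0.16 (R 4.3.3) fitted all 24 libraries in 8 groups with TMM normalization, after its filter on low counts, by the quasi-likelihood F test. Called means a Benjamini-Hochberg adjusted p under 0.05 over 20502 genes. The effect of Cdx2-/- cecum is the mean of both sets. Standard errors are the log2 fold change over the root of F. CPM values are per library total of gene reads multiplied by the library's TMM factor, and intervals are 95%. Intervals of log2 fold changes come from the SE by a normal approximation, so they are narrower than the F test implies. The model step was tested on simulated counts. Alternatives were DESeq2 1.42.0, other normalization, no filter, only the groups compared, either set alone, set 1 replicates 2 and 3 added up, a replicate block, and each library left out.

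The 10 members and 25 gene lists were chosen with earlier results of these data known. Of 253 list genes besides members, 6 were not tested and 2 symbols were not matched. From each list up to 4 genes of smallest adjusted p are named for Cdx2-/- against WT cecum and up to 2 for other comparisons, with all members, defining neutrophil markers and up to 3 genes nearest in pattern to a member (for Csf3 this is not reported here). TTGCNNAA and TGANTCA were added to the motif search after the data had been seen.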

Additional observations from a re-analysis of the deposited data

Results flagged for a closer look

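Cxcl1 differed between the 2 sets of Cdx2-/- cecum, set 2 against set 1, by -1.51 on the log2 scale. The sets differ in sex and library code, and the part of either was not tested.

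The effect in cecum (Cdx2-/- over WT) and the effect in ileum (Cdx2-/- Apc+/- over Apc+/-) differed for all 10 members by the test of the difference in edgeR, which was added after the values had been seen. The effect in cecum minus that in ileum, on the log2 scale, was 5.23 for Cxcl1, 6.63 for Cxcl2, 7.45 for Cxcl5, 2.82 for Cxcr2, 5.35 for Csf3, 4.50 for Il1b, 8.11 for Lcn2, 7.76 for S100a8, 7.49 for S100a9 and 2.94 for Ptgs2. Without the library labelled Cdx2-/- Apc+/- ileum replicate 2 all 10 were still called, with Cxcr2 at 2.50 (adjusted p = 0.0222, edgeR).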

How the results depend on the processing

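No member's log2 fold change changed sign while called. For single genes, leaving out a library kept the side of the threshold in 698 cases, with 5 now called and 17 no longer called, and the other alternatives kept it in 552, with 6 now called and 8 no longer called. Of Cdx2-/- Apc+/- against Cdx2-/- cecum, where 2 members were called higher, 0 were called with set 2 alone, 1 with only the groups compared in the fit, 0 with set 1 replicates 2 and 3 added up, and 0 to 3 with a library left out. Of Cdx2-/- against Cdx2+/- cecum, 2 members were called lower with set 2 alone and 0 to 1 with a library left out. Of set 2 against set 1, 0 were called lower with the 2 libraries added up and 0 to 1 with a library left out. Of WT stomach against WT cecum, 1 was called lower with only the groups compared and 0 to 1 higher with a library left out. The cause of these changes was not tested.

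Counts over all tested genes moved more. For Cdx2-/- Apc+/- against Cdx2-/- cecum 1729 genes were called, against 4465 with set 1 alone, 2 with set 2 alone, 1053 with only the groups compared, 1010 with the libraries added up and 280 without Cdx2-/- Apc+/- replicate 2. In the ileum 91 were called, against 1 with only the groups compared, 416 with DESeq2, 583 without Cdx2-/- Apc+/- replicate 2 and 3 without Apc+/- replicate 1. For set 2 against set 1, 2148 were called, against 970 with the libraries added up and 665 without replicate 5.

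Of 63 same-numbered pairs, 13 had deviations from their group means correlated above 0.1 (-0.30 to 0.33). Differently numbered pairs were not compared, so these values cannot decide whether replicate numbers pair the samples. With the replicate block, which leaves set 2 out, Cxcl1 in Cdx2-/- Apc+/- against Cdx2-/- cecum had 0.60 (adjusted p = 0.332, edgeR) and Cxcl2 2.20 (adjusted p = 0.0322, edgeR), and 4326 genes were called.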

Other observations

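Other cell type markers were measured in Cdx2-/- against WT cecum, where 26.9% of tested genes were called higher and 26.2% lower. Counts near these shares do not set a list apart. Of 10 mast cell markers 8 rose and none fell, for example the tryptase Tpsb2 (4.34 ± 0.48) and the chymase Cma1 (3.85 ± 0.59). Of 11 macrophage markers 6 rose, among them Mrc1 (1.44 ± 0.41) and C1qb (0.76 ± 0.24), and of 6 fibroblast markers 5 rose. Of 4 eosinophil markers 1 rose, Prg2 (3.68 ± 0.69), as did 2 of 6 B and plasma cell markers and 3 of 5 endothelial markers. Of 7 T cell markers 1 rose and 2 fell, of 6 pan-epithelial markers 1 rose and 3 fell, and of 6 smooth muscle markers none was called. Of 11 squamous markers 6 rose, among them Pax9 (6.55 ± 0.84) and Ivl (7.72 ± 1.04). All 6 intestinal epithelial markers fell, as did 3 of 4 colonic and cecal ones, while 4 of 8 gastric markers rose and 1 fell and 2 of 6 small intestinal markers rose.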
